A study of Mus musculus with 12 samples.

Results

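Gene expression was compared between mouse embryonic fibroblasts that received an oncogenic RAS and then a short hairpin RNA against p53 (the RAS+shp53 cells) and fibroblasts that received the p53 hairpin alone (the shp53 cells). The arrays were chosen by their titles: 3 RAS+shp53 arrays and 3 shp53 arrays, 6 of the 12 arrays of the series. The fibroblasts came from mid-gestation C57BL/6 embryos and were grown with 10% fetal bovine serum, and RASV12 and shp53 were delivered by viral vectors. Both groups carry shp53, so the comparison holds p53 knockdown in common and adds RASV12 given first. The labels name neither the RAS gene in the vector, nor the promoter, nor the time between the transductions, and no group without a vector was used. The series title describes cells transformed after senescence, and the comparison asks how they differ from cells with p53 knockdown only.

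RAS proteins relay growth factor signals through the RAF, MEK and ERK kinases to transcription factors of the ETS and AP-1 families, and the V12 form stays in its active state. ERK output induces its own inhibitors, such as the dual specificity phosphatases and the Sprouty and Spred proteins. In normal fibroblasts sustained RAS activity leads to senescence, a lasting arrest that needs p53 and the CDK inhibitors and is accompanied by secretion of chemokines, interleukins and proteases. Loss of p53 function lets such cells divide again.

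The arrays read 1 RNA sample each in a single colour. Levels are given as the log2 signal less the array's 75th percentile, so 0 is a gene as bright as that percentile. Calls were made with limma over all autosomal genes, where the p adjusted by Benjamini-Hochberg was under 0.05. Log2 fold changes are RAS+shp53 minus shp53, with the standard error from that fit and 3 arrays in each group, and every adjusted p below comes from it. Where no array of the dimmer group was well above background, the fold is a bound, written "at least", against the lowest signal well above background. Levels of different genes come from different probes and are not set against each other. Between 56.6% and 61.7% of the spots of these arrays were well above background. The labels call the samples independent biological replicates. Even so, shp53 replicates 1 and 3 (r = 0.9977 across probes) and RAS+shp53 replicates 2 and 3 (r = 0.9958) were closer to each other than either was to the remaining array of its group, with r between 0.9673 and 0.9732. shp53 replicate 2 and RAS+shp53 replicate 1 therefore stand apart.

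The cultures also differed in ways other than the vectors. Xist, the RNA that silences an X chromosome in female cells, was at -1.06, -0.30 and -0.99 on the shp53 arrays and was not well above background on the RAS+shp53 arrays. Ddx3y, Eif2s3y and Uty of the Y chromosome were well above background on all RAS+shp53 arrays and on no shp53 array. The sex of the embryos and the vectors cannot be told apart here, and genes of the X and Y chromosomes were left out of all counts. All 12 fibroblast markers, among them Vim and Col1a2, were well above background on every array, with 2 called higher and 5 lower. Of 20 macrophage and leukocyte markers, 19 were well above background on all shp53 arrays and 7 on all RAS+shp53 arrays, while 10 were above it on no RAS+shp53 array. Their summed level, on a linear scale where 1 is the array's 75th percentile, ran from 16.2 to 178 in the shp53 group and from 6.24 to 9.54 in the RAS+shp53 group. The shp53 low was replicate 2. Itgam, which was not called, made up 4.76 to 8.06 of the RAS+shp53 sum, and the other 19 markers summed to 9.09 to 169 against 1.48 to 1.59. Such sums add different probes and describe only the list. Of these markers 17 were called lower and 0 higher, and Adgre1, Cx3cr1, Tyrobp and C1qc had no RAS+shp53 array above background. In such bulk samples fewer cells of a type and less RNA per cell cannot be told apart.

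Of 13904 genes tested, 3080 were higher in RAS+shp53 cells (22.2%) and 3236 lower (23.3%), or 45.4% in either direction, and the median log2 fold change of all genes was 0.03. The arrays of the groups did not overlap for 56.5% of genes. At least 2-fold changes with the same test numbered 1354 higher and 2090 lower. With the closest pair of arrays of each group averaged to 1 sample, 950 genes were higher and 1404 lower, and with the array farthest from its group left out in all 4 groups of the fit the counts were 5108 and 4948. Scaling to the array median moved the median of all genes to 0.37 and the split to 4808 higher and 2122 lower, or 69.4% higher against 48.8%. Normexp background correction left 92 higher and 239 lower. Of 169 named genes called, 111 lost the call under that correction, Rasgrf1, Mmp1a, Csf2, Hoxa11, Perp, Tap1 and Insig1 among them, and 30 lost it with the closest arrays averaged. Each slide carried 1 array of each group. Of the genes called, 3067 of the 3080 higher and 3204 of the 3236 lower had that direction within all 3 slides. The same arrays gave the calls, so these counts follow largely from the calls and are no separate test. With so many genes called, a list is read below against these shares, and a list's count near them says little about the list.

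**Figure D1:**
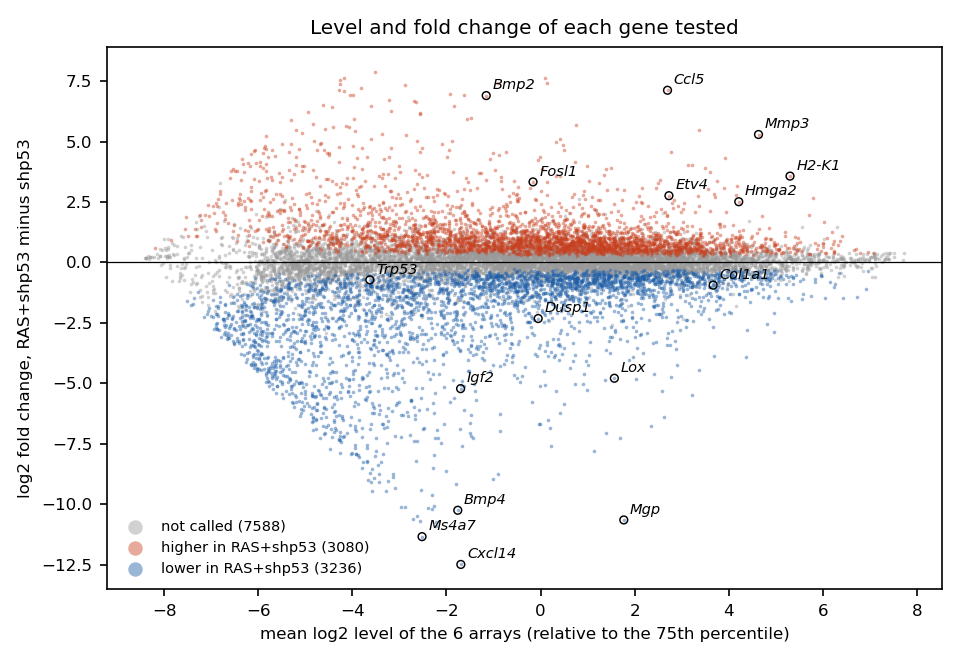
Each point is 1 of the 13904 genes tested. The x axis is the mean log2 level of the 6 arrays, the y axis the log2 fold change of RAS+shp53 over shp53 cells, and the colours mark the 3080 genes called higher, the 3236 called lower and the rest. Points at the slanted edges on the left are genes near background in one group, whose fold changes are fitted and not measured.

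The targeted genes were read first. Trp53, which encodes p53, was at -3.22, -3.55 and -3.06 on the shp53 arrays and at -4.14, -4.01 and -3.83 on the RAS+shp53 arrays, against a mean of -0.56 in the cells with RASV12 alone. All 6 arrays were thus far below the group without the hairpin. Between the groups compared Trp53 was lower in the RAS+shp53 cells (-0.72 ± 0.19, adjusted p = 0.0127), a call lost without shp53 replicate 3, with quantile or array median scaling, with normexp and with the closest arrays averaged. Of the endogenous RAS genes, Hras was at 2.05, 2.19 and 2.0 in shp53 cells and at 0.79, 1.47 and 1.64 in RAS+shp53 cells (-0.78 ± 0.25, adjusted p = 0.0294). That call was lost without any 1 of the shp53 arrays or without RAS+shp53 replicate 1. It was also lost with the replicate number, here the slide, as a block over the 6 arrays (adjusted p = 0.0667), with array median scaling, with normexp and with the closest arrays averaged. Nras (0.43 ± 0.18, adjusted p = 0.0754) was not called. Whether any of these probes reads the vector's RAS is not stated in the sources used here.

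Genes of the RAS-ERK pathway were mostly higher. Of 32 feedback and output genes tested, 20 were higher and 7 lower, with a median log2 fold change of 1.1. Fosl1, the AP-1 subunit Fra-1, was at -2.02, -1.32 and -2.13 on the shp53 arrays and at 1.68, 1.37 and 1.46 on the RAS+shp53 arrays, a log2 fold change of 3.33 ± 0.22 (adjusted p = 1.51e-06). The groups were far apart and each was tight. Etv4, an ETS factor, was at 1.13, 1.73 and 1.20 in shp53 cells and at 4.17, 4.01 and 4.17 in RAS+shp53 cells (2.76 ± 0.19, adjusted p = 2.01e-06). Its relative Etv1 had a similar change (3.29 ± 0.38), whereas Etv5 did not pass the test (0.36 ± 0.18, adjusted p = 0.121). Dusp6, the phosphatase that removes the activating phosphates of ERK, was at 2.55, 1.86 and 2.62 against 5.39, 4.94 and 4.86 (2.72 ± 0.27, adjusted p = 2.84e-05). Spry4, a feedback inhibitor of receptor signalling to RAS, was at -2.03, -2.55 and -2.13 against 0.03, -0.79 and -1.06 (1.63 ± 0.35, adjusted p = 0.00349). Higher too were Dusp4, Dusp5, Dusp7, Spry2, Spred1, Spred2, Spred3, Myc, Jun, Junb and Fosb.

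The lower genes of that list included other members of the same families. Dusp1, an immediate early phosphatase of stress kinases and ERK, was at 1.14, 1.03 and 1.17 in shp53 cells and at -1.25, -1.27 and -1.11 in RAS+shp53 cells (-2.32 ± 0.14, adjusted p = 8.53e-07). Both groups were tight and far apart. Rasa3, a GTPase activating protein that returns RAS to its inactive state, was at 3.85, 3.81 and 3.92 against 2.41, 2.24 and 2.17 (-1.58 ± 0.12, adjusted p = 5.42e-06). Spry1, Egr2, Klf5, Fos and Fosl2 were also lower, and with the closest arrays averaged 3 genes of the list were. Rasgrf1, a guanine nucleotide exchange factor that loads RAS with GTP, was not well above background in shp53 cells (-8.12, -6.91 and -7.34). It was at -1.09, 1.20 and 1.17 in RAS+shp53 cells, at least 97.5-fold higher (adjusted p = 5.77e-06).

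The promoters of a phosphatase that rose and of one that fell are shown to set their sequences side by side, with those of the chemokines Cxcl14 and Ppbp, both lower. Each is the 250 bases before the transcription start in RefSeq on GRCm38.p6, in the direction of transcription. Both strands were searched for the AP-1 motif TGANTCA and the NF-kB motif, and capitals mark a match. Dusp6 lies on the plus strand at chr10:99262981-99263230, Dusp1 on the minus strand at chr17:26508473-26508722, Cxcl14 on the minus strand at chr13:56296552-56296801 and Ppbp on the plus strand at chr5:90768268-90768517.
Dusp6: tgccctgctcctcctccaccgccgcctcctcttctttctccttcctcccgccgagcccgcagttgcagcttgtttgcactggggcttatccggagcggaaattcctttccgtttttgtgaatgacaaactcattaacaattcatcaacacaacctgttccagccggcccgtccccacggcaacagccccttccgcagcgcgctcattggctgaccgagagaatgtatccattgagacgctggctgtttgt
Dusp1: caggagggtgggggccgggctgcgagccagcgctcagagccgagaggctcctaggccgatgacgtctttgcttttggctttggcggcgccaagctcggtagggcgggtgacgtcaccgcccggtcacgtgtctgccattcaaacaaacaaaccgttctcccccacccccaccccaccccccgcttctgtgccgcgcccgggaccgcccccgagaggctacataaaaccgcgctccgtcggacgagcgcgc
Cxcl14: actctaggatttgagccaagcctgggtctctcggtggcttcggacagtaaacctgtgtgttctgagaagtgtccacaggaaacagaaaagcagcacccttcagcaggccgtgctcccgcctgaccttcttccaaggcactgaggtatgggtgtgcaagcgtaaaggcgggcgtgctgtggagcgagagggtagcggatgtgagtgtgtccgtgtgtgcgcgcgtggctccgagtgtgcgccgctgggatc
Ppbp: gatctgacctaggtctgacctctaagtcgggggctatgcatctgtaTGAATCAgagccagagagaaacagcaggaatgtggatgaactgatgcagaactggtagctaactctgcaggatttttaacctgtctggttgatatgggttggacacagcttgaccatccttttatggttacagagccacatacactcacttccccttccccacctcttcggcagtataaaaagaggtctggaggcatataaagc
The 1 match was an AP-1 motif in the Ppbp window, 204 bases before the start. The windows of Dusp6, Dusp1 and Cxcl14 held neither motif, nor did those of Rasa3 and Cxcl15. Fosl1, Etv4, Cxcl5 and Ccl5 had no promoter in the source used, and Spry4 was not searched. Of all 32851 promoters of the same length, 6.75% hold the AP-1 motif and 0.356% the NF-kB motif. A match is a description of these letters, and no factor's binding was measured.

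Among 11 ligands and receptors of the EGF receptor family tested, 4 were higher and 1 lower, with 2 higher when the closest arrays were averaged. The lower count was 3 without shp53 replicate 1 and 2 without shp53 replicate 2 or RAS+shp53 replicate 1. Btc, the ligand betacellulin, was not well above background in shp53 cells and was at -2.29, -2.35 and -2.25 in RAS+shp53 cells, at least 14.7-fold higher (adjusted p = 9.42e-06). Ereg, epiregulin, was at 0.63, 0.29 and 0.68 against 1.34, 2.27 and 2.32 (1.44 ± 0.33, adjusted p = 0.00487, lost with the closest arrays averaged). Areg, amphiregulin, was higher by 4.34 ± 1.05. Lrig1, which removes EGF receptors from the cell surface, was at 1.60, 1.66 and 1.55 against 4.01, 3.52 and 3.54 (2.09 ± 0.20, adjusted p = 2.25e-05). The receptor gene Egfr itself was at 2.38, 2.53 and 2.34 against 0.63, 1.66 and 1.39 (-1.19 ± 0.27, adjusted p = 0.00477). The Egfr call was lost with array median scaling (and with the closest arrays averaged).

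With p53 knocked down in both groups, its target genes split. Of 28 tested, Trp53 itself among them, 4 were higher and 9 lower, a median of -0.18, and averaging the closest arrays left 2 and 3. The shares are close to those of all genes. Cdkn1a, the CDK inhibitor p21 and the best known p53 target, was at 2.58, 2.14 and 2.61 in shp53 cells and at 2.52, 2.25 and 2.33 in RAS+shp53 cells (-0.08 ± 0.16, adjusted p = 0.707), and the arrays overlapped. Its second, dimmer probe gave -0.95, so the probes disagree. Mdm2, the ubiquitin ligase that degrades p53, was at 3.99, 3.78 and 4.05 against 4.57, 4.71 and 4.88 (0.78 ± 0.14, adjusted p = 0.00116, lost with the closest arrays averaged). Perp, a membrane protein of desmosomes and apoptosis, was at 0.03, -0.61 and 0.17 against -3.15, -3.27 and -3.08 (-3.03 ± 0.34, adjusted p = 6.85e-05). Fas, the death receptor (-1.30 ± 0.20), and Ddit4l (-1.74 ± 0.24) were lower, while the translesion polymerase Polk was higher (1.34 ± 0.16).

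Of 20 CDK inhibitors, G1 cyclins and E2F factors tested, 6 were higher and 5 lower, and 0 and 1 with the closest arrays averaged. These shares are not far from those of all genes (22.2% and 23.3%), and the median was 0.05. The lower count was 3 without any 1 of shp53 replicates 1 or 3 or RAS+shp53 replicates 2 or 3. Cdkn2a, which encodes p16 and p19ARF, was at 5.5, 5.24 and 5.46 in shp53 cells and at 6.52, 5.74 and 5.67 in RAS+shp53 cells. The groups did not overlap, and the difference did not pass the test (0.58 ± 0.26, adjusted p = 0.0925). Its neighbour Cdkn2b, p15, was at 3.85, 3.80 and 3.86 against 3.52, 2.76 and 2.59 (-0.88 ± 0.32, adjusted p = 0.0465). The Cdkn2b call was lost without any 1 of the arrays other than RAS+shp53 replicate 1. Cdkn1c, the imprinted inhibitor p57, was at 2.80, 2.62 and 3.02 against 1.22, -0.38 and -0.34 (-2.65 ± 0.47, adjusted p = 0.00121, lost with the closest arrays averaged). Cyclin D1, Ccnd1, did not differ beyond the spread between arrays (0.05 ± 0.17, adjusted p = 0.819). Ccnd2 was lower, from 4.14, 4.19 and 4.12 to 2.89, 2.6 and 2.73 (-1.41 ± 0.18, adjusted p = 0.000139). E2f1 (0.89 ± 0.22, adjusted p = 0.00749) and E2f2 (1.33 ± 0.28, adjusted p = 0.00368) were higher, and both calls were lost with the closest arrays averaged.

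DNA replication genes were higher or not called. Of 28 tested, 14 were higher and 0 lower, with a median of 1.07. Cdt1, which loads the MCM helicase at origins, was at 1.53, 1.96 and 1.56 in shp53 cells and at 3.35, 4.23 and 4.26 in RAS+shp53 cells (2.26 ± 0.25, adjusted p = 6.62e-05). Prim1, the primase subunit, was at 0.67, 1.0 and 0.63 against 2.40, 3.68 and 3.73 (2.50 ± 0.40, adjusted p = 0.000662). RAS+shp53 replicate 1 was the lowest of its group for both, and for the median of the list (0.95 against 2.15 and 2.22). The count was 24 without that array. It was 7 without shp53 replicate 1, 6 without shp53 replicate 3, 7 and 5 without RAS+shp53 replicates 2 and 3, and 2 with the closest arrays averaged. The calls of Orc6 and Pold1 were among those lost with averaging.

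The 26 mitosis genes showed the same divided group. Their median level was 1.29, 1.65 and 1.35 on the shp53 arrays and 0.78, 3.05 and 2.98 on the RAS+shp53 arrays, so that replicate 1 lay below the shp53 arrays and the others above. Only Bub1b, a spindle checkpoint kinase (1.91 ± 0.43, adjusted p = 0.00475), and Nek2, a centrosome kinase (1.65 ± 0.57, adjusted p = 0.0377), were called. The Nek2 call was lost without shp53 replicate 1 or 3 or RAS+shp53 replicate 2 or 3. Averaging the closest arrays left 0 calls, and leaving out RAS+shp53 replicate 1 gave 15, whereas it was 1 without shp53 replicate 1 or 3 or RAS+shp53 replicate 2 or 3. Mki67, the proliferation antigen Ki-67, was at 2.26, 2.58 and 2.19 against 1.80, 3.39 and 3.31 (0.49 ± 0.64, adjusted p = 0.553). Of 12 lamins, heterochromatin proteins and HMG proteins that change in senescent nuclei, 8 were higher and 0 lower. The count was 5 without any 1 of shp53 replicates 1 or 3 or RAS+shp53 replicates 2 or 3, and 2 with the closest arrays averaged. Hmga1 was at 4.62, 4.98 and 4.58 against 6.78, 6.63 and 6.69 (1.97 ± 0.20, adjusted p = 2.9e-05). Hmga2, an oncofetal chromatin protein, was at 2.54, 3.65 and 2.69 against 5.24, 5.59 and 5.58 (2.51 ± 0.26, adjusted p = 3.81e-05). Lmnb1, lamin B1, overlapped between the groups (0.76 ± 0.59, adjusted p = 0.312).

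**Figure D2:**
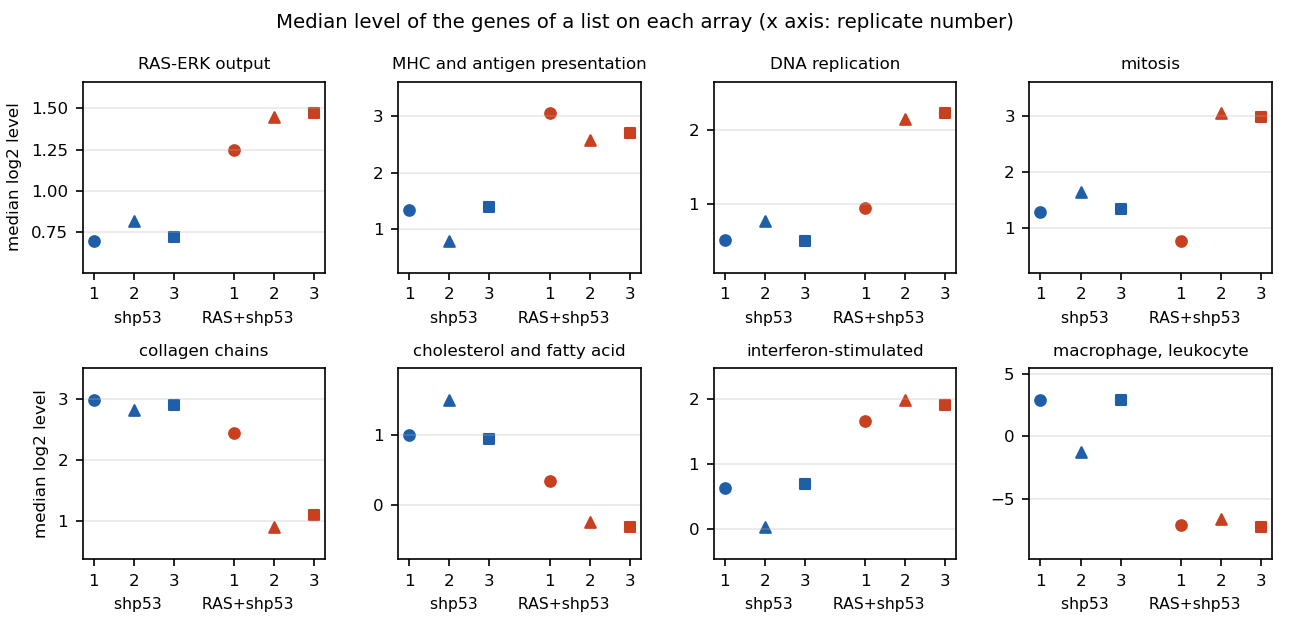
Each panel gives, for 1 gene list, the median log2 level of its genes (y axis) on the 3 shp53 arrays and the 3 RAS+shp53 arrays (x axis, replicate numbers, marked by shape). RAS+shp53 replicate 1 lies near the shp53 arrays for DNA replication (0.95), mitosis (0.78) and collagens (2.44) and with its own group for RAS-ERK output (1.25), and the macrophage and leukocyte markers are at -1.25 in shp53 replicate 2 and at 2.92 in the other two.

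Chemokines, the attractants that senescent and transformed cells secrete, fell more often than they rose. Of 24 tested, 13 were lower and 6 higher, with a median of -1.63. Cxcl14, a constitutive stromal chemokine, was at 4.83, 3.96 and 4.87 on the shp53 arrays and was not well above background on the RAS+shp53 arrays (-7.5, -8.15 and -8.15). It was at least 1490-fold lower (adjusted p = 4.66e-08). Ppbp, a platelet-type CXCR2 ligand, was at -0.93, -0.11 and -0.72 in shp53 cells and not above background in RAS+shp53 cells, at least 42.4-fold lower (adjusted p = 4.66e-08). Its neighbours on chromosome 5, Cxcl15 (at least 21.4-fold lower) and the CXCR2 ligand Cxcl5 (-4.47 ± 0.42), were lower too. Cxcl5 was at 2.54, 1.76 and 2.64 against -3.08, -1.86 and -1.53 (adjusted p = 2e-05). Cxcl1 of the same cluster overlapped between the groups (-0.13 ± 0.55, adjusted p = 0.858). Pf4, Ccl3, Ccl4, Ccl6 and Ccl9 were among the lower chemokines. For Pf4 shp53 replicate 2 was at -2.02 and the other shp53 arrays at 2.69 and 2.74, the order that the macrophage markers have. The part of the macrophage markers in these lower values was not tested.

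The 6 higher chemokines were Cxcl2, Ccl2, Cxcl10, Ccl5, Ccl7 and Ccl11. Ccl5, which draws lymphocytes and monocytes, was at -0.87, -0.89 and -0.83 in shp53 cells and at 6.11, 6.31 and 6.36 in RAS+shp53 cells (7.12 ± 1.19, adjusted p = 0.000881). Both groups were tight, and the standard error pools the spread of all 4 groups of the fit. Ccl2, which draws monocytes, was at 4.95, 3.42 and 4.98 against 7.31, 7.03 and 7.05 (2.68 ± 0.36), and Cxcl10, an interferon-induced chemokine, at 0.94, -0.45 and 0.97 against 4.51, 5.36 and 5.29 (4.57 ± 1.27).

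Of 24 interleukins, colony stimulating factors and their receptors, 7 were higher and 8 lower, not far above the shares of all genes (22.2% and 23.3%). Csf2, which encodes GM-CSF, was not above background in shp53 cells and was at 0.31, -2.21 and -2.26 in RAS+shp53 cells, at least 27.8-fold higher (adjusted p = 3e-05). Lif, a cytokine of the interleukin 6 family, was at -5.29, -5.02 and -4.86 against -1.42, -1.49 and -1.35 (3.64 ± 0.26, adjusted p = 2.98e-06). Its receptor chains went the other way. Il6st, the shared chain gp130, was at 3.24, 2.83 and 3.16 against 1.14, 0.66 and 0.68 (-2.25 ± 0.19, adjusted p = 1.08e-05), and Lifr (-2.25 ± 0.32) and Osmr (-1.79 ± 0.22) were lower. Il18 was lower too (-3.28 ± 0.31, adjusted p = 2.38e-05). Il6, a main senescence cytokine, was at 2.08, -0.49 and 2.08 in shp53 cells and at -1.34, -0.22 and -0.24 in RAS+shp53 cells, and the groups overlapped. Its call (-1.82 ± 0.62, adjusted p = 0.0343) was lost without shp53 replicate 1 or 3 and without any 1 of the RAS+shp53 arrays. In slide 2 the RAS+shp53 array was the higher.

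Prostaglandin genes were called higher in 4 and lower in 6 of 15, and the higher count is near the share of all genes. Ptges, which makes prostaglandin E2, was at 3.79, 3.56 and 3.81 against 4.82, 4.67 and 4.70 (1.02 ± 0.13, adjusted p = 0.000187), and the cyclooxygenases Ptgs1 (2.08 ± 0.33) and Ptgs2 (1.43 ± 0.22) were higher. Ptgis, prostacyclin synthase, was at 3.48, 2.49 and 3.43 against -1.67, -0.86 and -0.79 (-4.24 ± 0.29, adjusted p = 2.49e-06). Hpgd, which degrades prostaglandins, was at 0.79, -3.47 and 0.80 in shp53 cells and not above background in RAS+shp53 cells, at least 41.1-fold lower (adjusted p = 0.000146). As with Pf4, its shp53 replicate 2 was the low one. The receptor Ptger3 was at least 4.13-fold lower (adjusted p = 0.000112).

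Secreted proteases changed in both directions. Of 21 matrix metalloproteinases and ADAMTS proteases, 9 were higher and 8 lower (5 lower with the closest arrays averaged). Of the 13 MMP genes 7 were higher and 2 lower, and of the 8 ADAMTS genes 2 were higher and 6 lower, a split seen in the data and not tested. Mmp3, stromelysin-1, was at 2.67, 0.67 and 2.64 against 7.96, 6.85 and 7.03 (5.29 ± 0.50, adjusted p = 2.19e-05). Mmp10, stromelysin-2, was at -3.32, -3.98 and -3.44 against 4.61, 3.47 and 3.51 (7.44 ± 0.44, adjusted p = 8.46e-07). Mmp9, gelatinase B, was at -4.97, -5.20 and -5.08 against 2.15, 1.60 and 1.78 (6.93 ± 0.42, adjusted p = 1e-06). Mmp1a, a collagenase, was not above background in shp53 cells and was at 0.80, -1.38 and -1.16 in RAS+shp53 cells, at least 48.6-fold higher (adjusted p = 4.95e-05). It is a close copy of Mmp1b, which was higher too, and the probes may not separate them. Adamts5, an aggrecanase, was at 0.12, -0.34 and -0.32 in shp53 cells and not above background in RAS+shp53 cells, at least 56-fold lower (adjusted p = 2.18e-07). Adamts1, Adamts2, Adamts9, Adamts12 and Adamts15 were lower, and Adamts7 was higher, from -1.96, -2.08 and -2.02 to 1.12, 0.54 and 0.91 (2.88 ± 0.21, adjusted p = 3.65e-06).

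Genes of the plasminogen system and protease inhibitors, taken as 1 list, were lower more often than higher. Of 15 tested, 3 were higher and 8 lower (4 with the closest arrays averaged). The list mixes inhibitors with proteases such as Plau, and the inhibitors were not counted apart. Timp3, a matrix-bound inhibitor of metalloproteinases, was at 6.98, 5.19 and 6.81 against 2.68, 2.31 and 2.19 (-3.93 ± 0.38, adjusted p = 2.67e-05). Serpine2, an inhibitor of thrombin and urokinase, was at -0.11, -0.21 and -0.16 against -2.39, -2.74 and -2.73 (-2.46 ± 0.29, adjusted p = 9.95e-05). Plau, urokinase, was higher (1.55 ± 0.19). Serpinb6b was at least 28.4-fold lower (adjusted p = 5.52e-06). Tfpi2, a Kunitz inhibitor of matrix proteases, ran against the inhibitors named above, at -5.86, -5.27 and -5.41 against -1.07, 0.17 and 0.21 (5.28 ± 0.42, adjusted p = 6.95e-06).

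Matrix genes fell widely. Of 22 collagen chains tested, 12 were lower and 0 higher, with a median of -1.97. Col8a1 was at 3.20, 2.77 and 3.09 against -0.65, -1.22 and -1.35 (-4.09 ± 0.32, adjusted p = 6.27e-06), and Col11a1, of fibrillar cartilage-type collagen, at 1.52, 2.31 and 1.46 against -1.73, -2.07 and -2.24 (-3.77 ± 0.29, adjusted p = 4.96e-06). Col8a2 was at 1.07, 1.77 and 1.06 against -4.48, -6.12 and -5.60 (-6.70 ± 0.47, adjusted p = 2.88e-06). Col10a1, a collagen of hypertrophic cartilage, was at 2.76, 2.88 and 2.69 in shp53 cells and not above background in RAS+shp53 cells, at least 434-fold lower (adjusted p = 1.55e-07). Col1a1, the main chain of type I collagen, was at 3.73, 4.91 and 3.79 against 4.15, 2.94 and 2.51. Its arrays overlapped, and it was not called (-0.94 ± 0.52, adjusted p = 0.161).

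Of 40 elastic fibre, proteoglycan and glycoprotein genes, 24 were lower and 2 higher, with a median of -1.65. Ltbp2, a fibrillin-binding protein, was at 5.75, 5.47 and 5.69 against 1.59, 1.81 and 1.84 (-3.89 ± 0.18, adjusted p = 1.36e-07). Lox, lysyl oxidase, which cross-links collagen and elastin, was at 3.94, 3.80 and 4.16 against -0.47, -0.95 and -1.06 (-4.79 ± 0.23, adjusted p = 2.18e-07). Mfap5, of microfibrils, was at 5.06, 4.65 and 5.08 against -1.14, -2.6 and -2.69 (-7.07 ± 0.37, adjusted p = 3.15e-07). Fmod, fibromodulin, was at 0.31, -0.02 and 0.29 in shp53 cells and above background on 1 RAS+shp53 array (-6.32 ± 0.47, adjusted p = 3.92e-06). Eln, elastin, was lower as well (-4.82 ± 0.43). The members higher were Lamb1, a laminin chain (1.06 ± 0.12), and Ltbp4 (1.29 ± 0.24), while Fn1, fibronectin, was at 0.00 and not called. Mgp, matrix Gla protein, an inhibitor of calcification outside this list, was at 7.03, 7.20 and 7.06 against -1.69, -4.75 and -4.23 (-10.65 ± 0.66, adjusted p = 1.18e-06). It was well above background on all 6 arrays.

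Of 21 contractile and actin genes, 10 were lower and 0 higher, with 6 lower when normexp correction was used with extreme backgrounds replaced. Of 14 skeletal muscle markers, 5 were lower (Myh8, Tnnt3, Tnni2, Acta1 and Des) and 0 higher. Of the 14, 8 were above background on no shp53 array, Myod1, Myog, Myf5 and Pax7 among them. The summed level of the 14 was 8.46 to 15.5 in shp53 cells and 1.29 to 2.3 in RAS+shp53 cells. Most of that sum was Acta1, at 3.52, 3.91 and 2.94 against 0.19, 0.51 and 1.14. The part of these markers in the contractile genes was not tested. Mylk, myosin light chain kinase, was at 0.38, -0.45 and 0.27 in shp53 cells and not above background in RAS+shp53 cells, at least 66.4-fold lower (adjusted p = 2.42e-06). Myocd, the smooth muscle coactivator myocardin, was at least 5.51-fold lower (adjusted p = 3.88e-06) and Des, desmin, at least 6.58-fold lower (adjusted p = 6.81e-05). Acta2, smooth muscle actin, was at 7.5, 7.37 and 7.49 against 5.46, 6.22 and 6.37 (-1.44 ± 0.41, adjusted p = 0.0154), a call lost with array median scaling or with the closest arrays averaged.

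Of 17 integrins tested, 4 were higher, near the share of all genes (22.2%). The lower count was 8, above the 23.3% of all genes, but 5 without RAS+shp53 replicate 2 and 2 with the closest arrays averaged. Itga2, a collagen receptor subunit of epithelia and platelets, was not above background in shp53 cells and was at 0.10, -1.04 and -0.66 in RAS+shp53 cells, at least 50.1-fold higher (adjusted p = 1.18e-05). Itga11, the collagen receptor subunit of fibroblasts, was at 5.93, 5.67 and 5.91 against 0.40, -1.04 and -1.03 (-6.39 ± 0.70, adjusted p = 5.68e-05). Itga4 was higher (2.40 ± 0.30, adjusted p = 0.000128) and Itga9 lower (-5.32 ± 0.58, adjusted p = 5.26e-05). Among 15 mesenchymal transition regulators and cadherins, 3 were higher and 5 lower, shares near those of all genes, with 3 lower under array median scaling or without shp53 replicate 1 or RAS+shp53 replicate 3. Cdh13, T-cadherin, was at least 86.1-fold lower (adjusted p = 3.07e-06), and Twist2, a mesenchymal transcription factor, was higher, from 3.32, 2.82 and 3.32 to 4.52, 4.6 and 4.80 (1.49 ± 0.22, adjusted p = 0.000392). Vim, Snai1, Zeb1 and Cdh2 were not called.

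BMP and TGF beta genes were mostly lower. Of 30 tested, 17 were lower and 2 higher, with a median of -1.1. Averaging the closest arrays left 8 lower, and without RAS+shp53 replicate 1 the higher count was 5 (7 with array median scaling). Bmp4, a morphogen of limb and mesenchyme, was at 3.11, 3.89 and 3.08 in shp53 cells and not above background in RAS+shp53 cells (-7.08, -6.86 and -6.71), at least 652-fold lower (adjusted p = 1.08e-07). Its close relative Bmp2 moved the other way, from -4.67, -4.29 and -4.85 to 2.55, 2.21 and 2.12 (6.90 ± 0.56, adjusted p = 7.96e-06). Smad6, an inhibitory SMAD that BMP signalling induces, was at -0.10, 0.21 and -0.04 against -4.52, -3.98 and -3.97 (-4.18 ± 0.16, adjusted p = 6.68e-08). Id2, Id3 and Id4, targets of BMP signalling, were lower, and Id1 was not called (0.52). Gdf6 was at least 16.2-fold lower (adjusted p = 5.14e-06). The TGF beta receptors Tgfbr1 (-1.32 ± 0.27) and Tgfbr2 (-1.42 ± 0.28) and the ligands Tgfb2 and Tgfb3 were lower, and the activin subunit Inhba was higher (1.07 ± 0.25).

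Wnt pathway genes were mostly lower as well. Of 26 tested, 17 were lower and 4 higher, with a median of -1.78, or -1.57 with 9 genes at their bound, and the counts were 10 and 2 with the closest arrays averaged. Sfrp1, a secreted Wnt antagonist, was at 3.16, 2.16 and 3.04 in shp53 cells and not above background in RAS+shp53 cells, at least 437-fold lower (adjusted p = 1.08e-07). Lgr5, the R-spondin receptor, was at 3.64, 1.14 and 3.58 in shp53 cells and at least 410-fold lower in RAS+shp53 cells (adjusted p = 6.38e-06). Rspo2, its ligand, was at 0.26, 2.23 and 0.51 and at least 124-fold lower (adjusted p = 1.6e-06). Nkd1, a feedback inhibitor, was at least 86.4-fold lower (adjusted p = 4.34e-06). The ligand Wnt4 was at least 47.3-fold lower (adjusted p = 5.89e-06). Axin2, the common readout of the pathway, was lower (-1.95 ± 0.37). Against these, Rspo4 was not above background in shp53 cells and was at 0.90, -1.24 and -1.18 in RAS+shp53 cells, at least 51-fold higher (adjusted p = 6.95e-06).

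In the IGF axis and among imprinted growth genes, 15 of 24 were lower and 2 higher (8 lower with the closest arrays averaged). The higher count was 1 without any 1 array other than RAS+shp53 replicate 2. Igf2, the fetal growth factor, was at 1.13, 0.64 and 0.96 against -4.56, -4.10 and -4.26 (-5.22 ± 0.31, adjusted p = 8.17e-07). H19, the noncoding RNA that shares its imprinting control on the other parental allele, was at 5.40, 5.93 and 5.43 against 2.51, 0.42 and 0.53 (-4.43 ± 0.48, adjusted p = 5.14e-05). Igfbp2 was at 3.25, 3.89 and 3.25 against -4.88, -5.96 and -5.66 (-8.96 ± 0.41, adjusted p = 1.46e-07). Igfbp7, an IGF-binding matrix protein, was at -0.04, -0.18 and -0.27 against -3.96, -3.77 and -3.87 (-3.70 ± 0.19, adjusted p = 2.82e-07). Plagl1, an imprinted zinc finger gene, was called lower (-2.66 ± 0.29, adjusted p = 4.99e-05), but its probes disagreed, from -2.89 to 0.33. The imprinted Peg10 was higher, and Dlk1, Meg3 and Igf2r were not called.

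Hox genes, which encode position along the body and limb axes, changed by cluster and by place in the cluster. In HoxA and HoxD, 10 of 19 were lower and 1 higher (Hoxa4, lost without shp53 replicate 1 or RAS+shp53 replicate 2 or 3), and in HoxB and HoxC 11 of 16 were higher and 3 lower, with a median of 1.31. Apart from Hoxa2, the lower genes were those at the posterior, distal-limb end of a cluster. Hoxa11 was at -0.43, 0.75 and -0.47 in shp53 cells and not above background in RAS+shp53 cells, at least 61.4-fold lower (adjusted p = 1.87e-07). Hoxa10 was at -1.48, -0.78 and -1.52 and at least 26.5-fold lower (adjusted p = 3.15e-07). Hoxd13, of the digits, was at 0.16, 1.83 and 0.19 and at least 105-fold lower (adjusted p = 1.16e-05), and Hoxd9 at least 7.91-fold lower (adjusted p = 6.38e-06). In HoxC too the lower genes were posterior, Hoxc10 (-2.97 ± 0.25, adjusted p = 9.27e-06), Hoxc13 (-2.70 ± 0.58) and Hoxc11, at least 2.37-fold lower (adjusted p = 2.84e-07). All 8 HoxB genes tested, Hoxb2 to Hoxb9, were higher. Hoxb5 was at -1.90, -2.09 and -1.83 against 0.45, 0.50 and 0.44 (2.40 ± 0.11, adjusted p = 1.64e-07), and Hoxb7 at 0.43, 0.29 and 0.56 against 2.84, 2.97 and 3.28 (2.6 ± 0.20, adjusted p = 5.6e-06). For Hoxb5 and Hoxb7 the arrays of a group were close and the groups far apart, whereas shp53 replicate 2 was the high one for Hoxa11, Hoxa10 and Hoxd13.

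**Figure D3:**
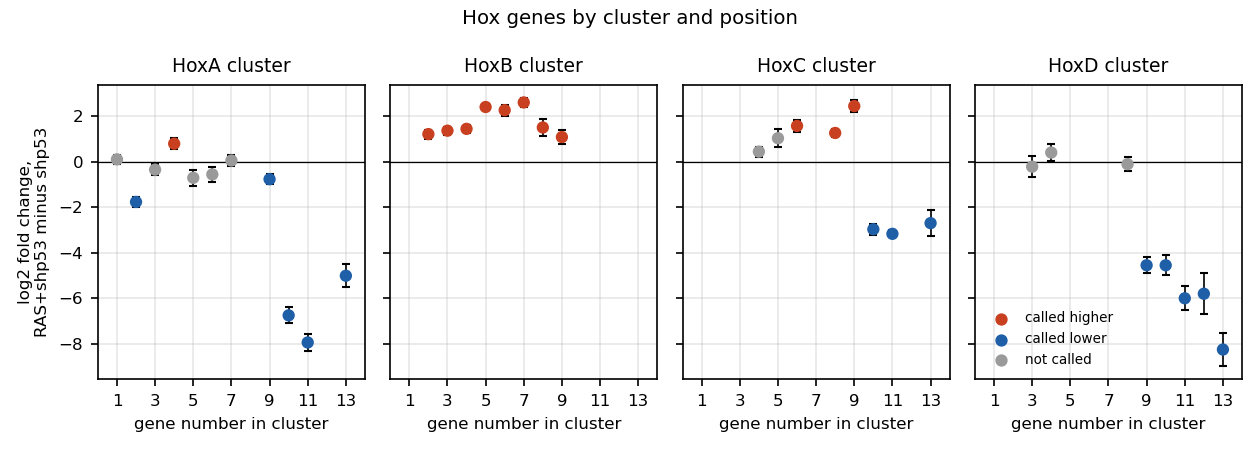
Log2 fold change (y axis, with the standard error from limma as bars) of each Hox gene tested, by cluster and by its number in the cluster (x axis); red marks genes called higher, blue lower and grey not called. HoxB genes are all above 0, from 1.08 to 2.6, and the values below -2 are all of genes numbered 9 or above in HoxA, HoxC and HoxD.

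Other patterning factors followed the distal limb genes. Of 37 patterning genes of the T-box, homeobox, forkhead and related families, 23 were lower and 7 higher (3 with the closest arrays averaged), with a median of -2.82, or -1.79 with 13 genes at their bound. Msx1, a homeobox gene of the limb bud, was at -0.98, -0.81 and -0.96 in shp53 cells and not above background in RAS+shp53 cells, at least 33.6-fold lower (adjusted p = 1.08e-07). Tbx18 was at least 21-fold lower (adjusted p = 1.29e-07), Shox2, a factor of the proximal limb, at least 16.5-fold (adjusted p = 1.46e-07) and Tbx1 at least 29.2-fold (adjusted p = 2.89e-07). Six2, a factor of kidney and tendon progenitors, was at -1.66, -0.38 and -1.82 in shp53 cells and at least 26.1-fold lower in RAS+shp53 cells (adjusted p = 2.22e-06). Its relative Six4 (3.07 ± 0.38) was higher, as was Hand2 (2.16 ± 0.17), a factor of the heart, branchial arches and posterior limb bud.

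MHC class I genes were higher. Of 17 antigen presentation genes, 11 were higher and 1 lower, with a median of 2.11. H2-K1, a classical class I heavy chain, was at 4.05, 2.41 and 4.11 against 7.38, 6.83 and 7.07 (3.57 ± 0.42, adjusted p = 9.35e-05). Tap1, the peptide transporter, was at -3.34, -3.72 and -3.36 against -0.45, -0.91 and -0.49 (2.86 ± 0.26, adjusted p = 1.6e-05). Nlrc5, the transactivator of class I genes, was at -1.26, -3.43 and -1.21 against 3.28, 2.63 and 2.81 (4.87 ± 0.49, adjusted p = 3.32e-05). H2-Q5 was at -3.51, -4.13 and -3.46 against 3.85, 3.97 and 3.91 (7.61 ± 0.33, adjusted p = 1.08e-07), and H2-Q7 at 2.12, 0.79 and 2.24 against 5.70, 5.24 and 5.47 (3.75 ± 0.39, adjusted p = 4.28e-05). The H2-Q genes are near-identical copies, and which of them a probe reads is uncertain. In each of these the groups did not overlap.

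Interferon-stimulated genes were called in fewer cases. Of 26 tested, 5 were higher and 1 lower, near or below the shares of all genes, although the median was 1.17. Ifit2 was at -1.85, -2.37 and -1.96 against 0.04, -0.01 and -0.03 (2.06 ± 0.20, adjusted p = 2.25e-05). Irf7, the transcription factor that amplifies the interferon response, was at -1.88, -3.09 and -2.10 against 0.63, 0.60 and 0.87 (3.05 ± 0.85, adjusted p = 0.0146), and the sensor Ifih1 was higher by 2.59 ± 0.58 (adjusted p = 0.00489), and both calls were lost with the closest arrays averaged. The cells with RASV12 alone, which add to the spread of the fit, had list medians of -1.17, 2.31 and -1.31. In a fit of the 6 arrays alone 17 of the genes were higher, and with the closest arrays averaged 1 was. Oas2 was the lower gene (-4.79 ± 1.35), with 4 genes lower without shp53 replicate 2 and 0 without shp53 replicate 1 or 3.

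Genes of the cornified envelope, the barrier of the outer epidermis, were higher although these are fibroblasts. Of 17 such genes and keratins, 11 were higher and 4 lower, with a median of 2.68 (2.16 with 3 genes at their bound). Sprr1a was at -1.84, -2.73 and -1.74 against 4.84, 2.91 and 3.02 (5.69 ± 0.58, adjusted p = 3.54e-05). Sprr2e was not above background in shp53 cells and was at 0.25, -0.51 and -0.84 in RAS+shp53 cells, at least 56.1-fold higher (adjusted p = 1.36e-07), and Sprr2h was at least 107-fold higher (adjusted p = 9.1e-05). Lce1e was at -5.63, -5.40 and -5.63 against -1.19, -0.48 and -0.81 (4.73 ± 0.58, adjusted p = 0.000118). The SPRR2 and LCE1 genes are families of close copies that the probes may not separate. The keratins Krt7, Krt19, Krt20 and Krt80 were lower, with Krt20 at -2.98 ± 0.31 (adjusted p = 4.25e-05). Krt18 was at -0.31, -0.63 and -0.31 against 3.27, 0.89 and 0.77 and was not called (2.06), although its groups did not overlap. Of 14 epithelial markers, 0 were called higher and 1 lower. Epcam, Cdh1, Krt8, Krt5, Krt14, Cldn4, Grhl2 and Ovol1 of these were too dim to be tested. S100 and acute phase genes had 7 of 20 higher (4 with the closest arrays averaged) and 4 lower. S100a8, a subunit of calprotectin, was not above background in shp53 cells and was at 0.11, -1.0 and -1.26 in RAS+shp53 cells, at least 44.1-fold higher (adjusted p = 7.96e-05), and its partner S100a9 was not called (0.23). Ptx3 was at least 110-fold lower (adjusted p = 1.54e-05) and S100b at least 18.9-fold lower (adjusted p = 7.44e-06).

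Metabolic genes changed most in sterol synthesis. Of 27 cholesterol and fatty acid synthesis genes, 22 were lower and 0 higher, with a median of -1.28, and 11 were lower with the closest arrays averaged. Hsd17b7 was at 1.01, 1.08 and 0.85 against -1.54, -1.5 and -1.37 (-2.45 ± 0.24, adjusted p = 2.73e-05). Mvk, mevalonate kinase, was at 2.93, 3.25 and 2.71 against 0.55, 0.67 and 0.46 (-2.40 ± 0.29, adjusted p = 0.000109). Hmgcs1, the first committed enzyme, was at 4.35, 4.81 and 4.31 against 2.79, 2.08 and 2.18 (-2.14 ± 0.26, adjusted p = 0.000112). Insig1, which holds the SREBP complex in the endoplasmic reticulum and is itself an SREBP target, was lower (-3.13 ± 0.38, adjusted p = 0.000114). The transcription factor Srebf2 (-1.07 ± 0.32) was lower too. The 5 genes not called, Fasn, Scd1, Scd2, Elovl6 and Acaca, all act in fatty acid synthesis.

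Of 27 amino acid response and ER stress genes, 12 were lower and 0 higher (5 with the closest arrays averaged). Trib3, a pseudokinase target of ATF4, was at 4.58, 4.21 and 4.61 against 1.1, 0.95 and 1.05 (-3.43 ± 0.63, adjusted p = 0.00158). Asns, asparagine synthetase, was at 4.75, 4.54 and 4.63 against 2.61, 3.45 and 3.31 (-1.52 ± 0.29, adjusted p = 0.00184), and Aldh1l2 (-2.50 ± 0.43, adjusted p = 0.00103) and Atf5 (-1.52 ± 0.28, adjusted p = 0.0015) were lower. The chaperone genes Hspa5 and Hsp90b1 were not called. Glycolysis and hypoxia genes gave 5 higher and 2 lower of 28, both below the shares of all genes. Without RAS+shp53 replicate 1 these counts were 2 and 4 and the median turned from 0.45 to -0.15. The higher count was 3 without shp53 replicate 1 or 3, 0 with the closest arrays averaged and 11 with array median scaling. The lower count was 0 without shp53 replicate 2 and 1 without shp53 replicate 1 or 3 or RAS+shp53 replicate 2 or 3. Pgam1 was at 5.67, 5.52 and 5.73 against 6.91, 6.10 and 6.16 (0.75 ± 0.20, adjusted p = 0.0107) and Tpi1 at 4.44, 4.32 and 4.42 against 6.05, 4.97 and 5.08 (0.98 ± 0.26, adjusted p = 0.0115), with RAS+shp53 replicate 1 the highest in both. Among 21 NRF2, glutathione and pentose phosphate genes 2 were higher and 1 lower, below the shares of all genes (7 higher with array median scaling, 2 lower without shp53 replicate 2), with Srxn1 higher (1.22 ± 0.20, adjusted p = 0.000712) and Cbr3 lower (-1.68 ± 0.26, adjusted p = 0.000597). Lysosome genes had 9 of 24 lower and 3 higher (2 lower with the closest arrays averaged). Gusb was lower (-1.35 ± 0.19, adjusted p = 0.000262), Mcoln1 higher (0.77 ± 0.15, adjusted p = 0.00222, lost with the closest arrays averaged), and Glb1, which encodes the senescence-associated beta-galactosidase, was not called (-0.47). Ctss and Cd68 of this list are also macrophage markers.

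Of 15 adipocyte differentiation genes, 10 were lower and 1 higher, with a median of -2.68, or -1.96 with 6 genes at their bound, and 6 were lower under normexp with extreme backgrounds replaced. The higher gene was the adipocyte marker Fabp4, at 0.17, -0.10 and 0.24 in shp53 cells and at 4.52, 2.61 and 2.33 in RAS+shp53 cells (3.05). Cebpa was at least 20.5-fold lower (adjusted p = 2.07e-05), Ebf2 at least 10.4-fold (adjusted p = 1.03e-05), and Pparg, the adipogenic nuclear receptor, went from -0.81, -0.34 and -0.85 to -2.63, -3.78 and -3.90 (-2.77 ± 0.37, adjusted p = 0.000215). Of 12 cartilage and bone genes 4 were lower and 1 higher (2 without shp53 replicate 2), with Scx, the tendon factor, from 1.64, 2.97 and 1.63 to -1.28, -1.80 and -1.80 (-3.70 ± 0.40, adjusted p = 4.9e-05) and Comp at least 45.9-fold lower (adjusted p = 0.000127). Of 21 stem cell associated genes 11 were lower and 4 higher, and 5 and 1 with the closest arrays averaged. The aldehyde dehydrogenase Aldh1a2, which makes retinoic acid, was at least 31.6-fold lower (adjusted p = 3.48e-07), and Aldh1a1 went from 0.86, -1.42 and 0.87 to -5.43, -5.89 and -5.47 (-5.70 ± 0.65, adjusted p = 7.29e-05). Pgr, the progesterone receptor, was at -2.55, -5.80 and -2.63 against -1.02, -0.49 and -0.43 (3.01 ± 0.80, adjusted p = 0.0119, lost with the closest arrays averaged). Of 14 placental prolactin genes 1 was higher, below the share of all genes, and 3 were lower, close to that share. The higher count was 4 without RAS+shp53 replicate 1. Without shp53 replicate 1 or 3 or RAS+shp53 replicate 3, 1 was lower. Prl2c1 was at 1.11, 0.60 and 0.97 against -0.99, -1.54 and -1.41 (-2.21 ± 0.30, adjusted p = 0.000214), and Prl2c5, a close relative that its probe may not separate from other copies, at -4.13, -5.00 and -4.10 against -2.85, -1.14 and -1.24 (2.67 ± 0.63, adjusted p = 0.00652, lost with the closest arrays averaged).

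**Figure D4:**
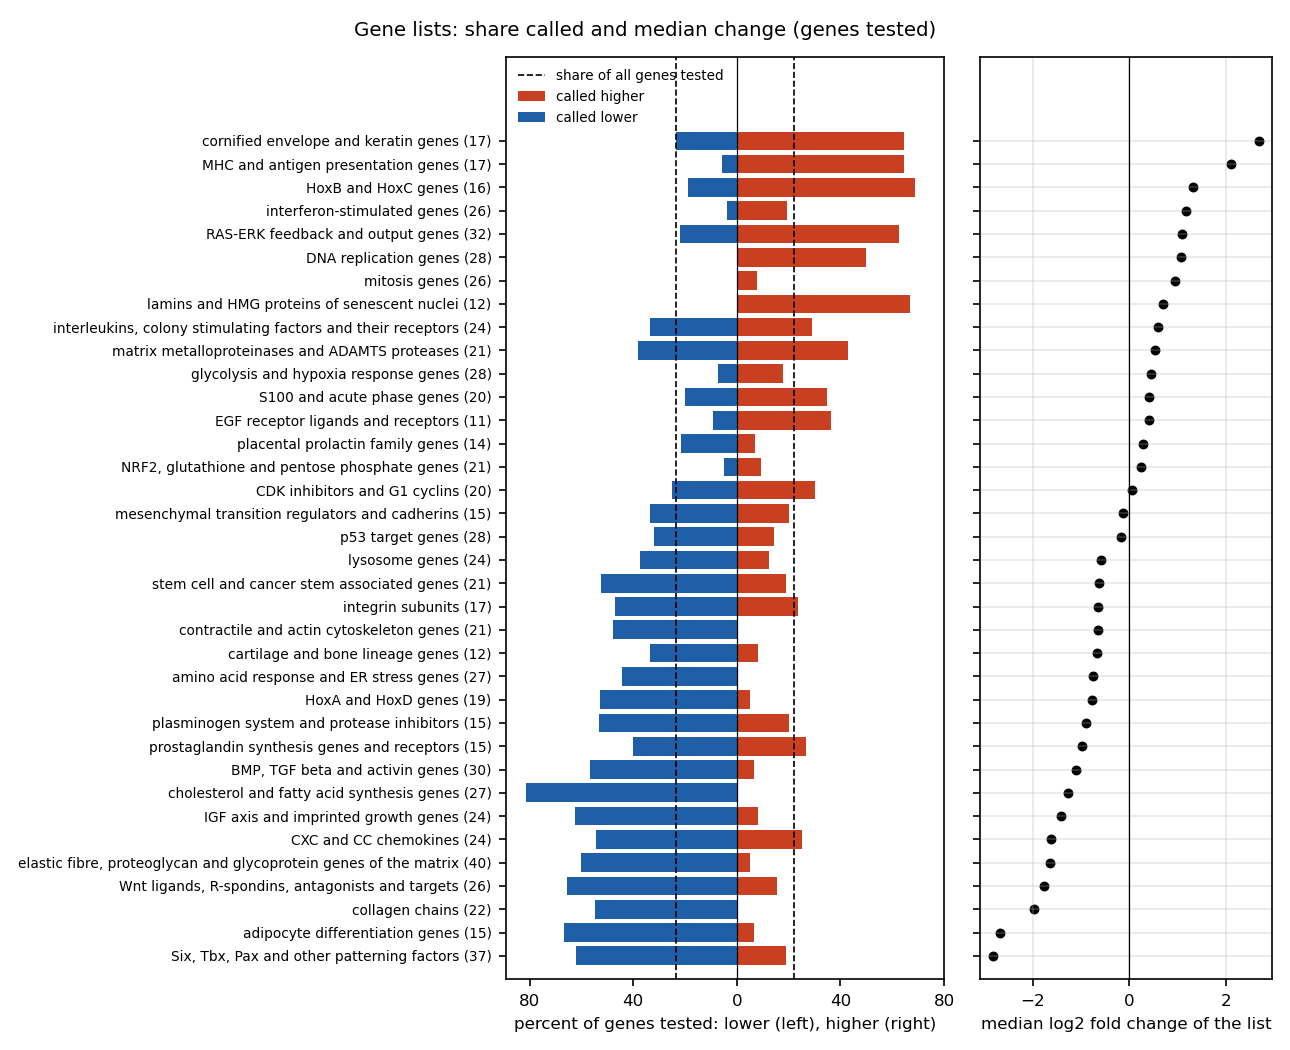
For each of the gene lists (number of genes tested in brackets), the left panel gives the percent of its genes called lower (blue, to the left) and higher (red, to the right), with dashed lines at the shares of all genes tested (23.3% and 22.2%); the right panel gives the list's median log2 fold change. Cholesterol and fatty acid synthesis, collagen, contractile and amino acid response genes have no red bar, and DNA replication, mitosis and lamin or HMG genes no blue bar.

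The extremes of the whole comparison join several of these groups. The 12 genes named for the highest fitted log2 fold changes were Rasgrf1, Sprr2e, H2-Q5, Rspo4, Mmp10, Gpr149, Mmp1a, Sprr2h, Stra6, S100a8, Ccl5 and Scin. All but H2-Q5, Mmp10, Gpr149 and Ccl5 were above background on no shp53 array, so their fits are not measured folds and have no order. The measured folds of Mmp9 and Bmp2, 122 and 119, exceed all of those bounds, but a bound is a minimum and does not rank the genes. Gpr149, a receptor with no known ligand, was at -5.05, -3.76 and -5.03 against 2.21, 3.05 and 3.12 (7.41 ± 0.39, adjusted p = 3.38e-07). Stra6, the retinol uptake receptor, was not above background in shp53 cells and was at -0.05, -0.36 and -0.20 in RAS+shp53 cells, at least 62.9-fold higher (adjusted p = 1.29e-05). Scin, an actin-severing protein, was at least 46.8-fold higher (adjusted p = 2.14e-06). The 12 named at the other end were Cxcl14, Ms4a7, Lyz1, Ccn5, Col10a1, Mgp, C1qc, Fndc1, Bmp4, Ctss, Anxa8 and Gjb2. Only Mgp was above background on any RAS+shp53 array, and its measured fold was 1610. The folds of the other genes are minima, so whether Mgp changed more than they did is not known. Ccn5, a matricellular protein, was at 3.36, 2.74 and 3.30 in shp53 cells and at least 557-fold lower in RAS+shp53 cells (adjusted p = 1.55e-07). Fndc1 was at least 389-fold lower (adjusted p = 1.15e-05), Anxa8 at least 407-fold (adjusted p = 8.31e-07) and the gap junction gene Gjb2 at least 288-fold (adjusted p = 5.89e-07).

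The genes Ms4a7, Lyz1, C1qc and Ctss stood out from these in their shp53 values. Of them, C1qc and Ctss are in the list of macrophage and leukocyte markers. Ms4a7 was at 4.53, 0.42 and 4.5, C1qc at 4.09, -0.38 and 4.14, and Ctss at 4.12, 0.09 and 4.16, each with shp53 replicate 2 more than 4 log2 units below the others. Lyz1 was at 4.43, 1.42 and 3.84. As bounds they were at least 565-fold (Ms4a7), 389-fold (C1qc), 440-fold (Ctss) and 596-fold lower (Lyz1) in RAS+shp53 cells, with adjusted p from 5.09e-07 (Lyz1) to 2.85e-05 (C1qc). Cxcl14, Ccn5, Col10a1, Bmp4 and Anxa8 differed by at most 0.91 between the shp53 arrays.

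**Figure D5:**
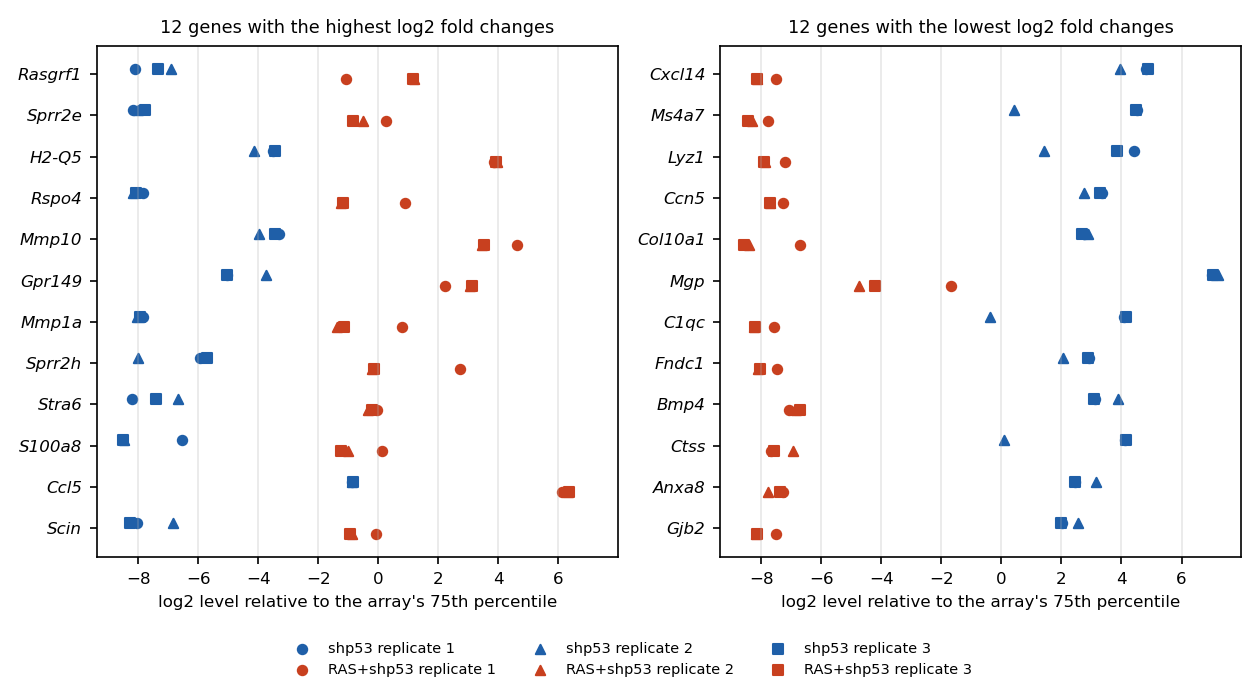
Log2 level (x axis, 0 at the array's 75th percentile) for the 12 genes with the highest (left) and the 12 with the lowest (right) fitted log2 fold changes, measured or not, on each of the 3 shp53 (blue) and 3 RAS+shp53 (red) arrays; shapes mark replicates. The genes were picked among called, named genes whose groups do not overlap and whose higher group was well above background, so the colours are apart by choice. The shp53 replicate 2 (blue triangle) lies apart for Ms4a7, Lyz1, C1qc and Ctss.

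Some of these differences were also differences from the other groups with RASV12. Against the cells that received shp53 first and RASV12 second, which hold the same vectors, 15.5% of genes were called in either direction, and against the cells with RASV12 alone 38.5%. These comparisons share the RAS+shp53 arrays with the one above and are given side by side only. With shp53 first, Ddx3y, Eif2s3y and Uty were well above background on all arrays and Xist on none, as in RAS+shp53 cells. With RASV12 alone, Xist was at -0.84, -0.78 and -1.41 and none of those Y genes was above background. Embryo sex and vectors therefore cannot be told apart in the comparison with RASV12 alone, nor in the contrast of 15.5% with 38.5%. Fosl1 was at 1.5 ± 0.16 (SD of 3 arrays) in RAS+shp53 cells, 1.43 ± 0.14 with the other order and 1.38 ± 0.23 with RASV12 alone, and neither difference was called (adjusted p = 0.861 and 0.69). Mmp3 (7.28, 7.66 and 6.07) and Hmga2 (5.47, 4.99 and 4.94) were not called against either group. The posterior Hox and patterning genes were otherwise. Hoxa11 was not above background in RAS+shp53 cells and was at 0.58 ± 0.69 with the other order and 0.88 ± 0.03 with RASV12 alone (adjusted p = 3.67e-07 and 1.84e-07). Six2 was at 2.07 ± 0.43 and -1.28 ± 0.15 in those groups (adjusted p = 3.67e-07 and 3.66e-06), Bmp4 at 0.76 ± 1.05 and 1.31 ± 0.24 (adjusted p = 2.02e-06 and 7.31e-07) and Ltbp2 at 4.90 ± 0.33 and 5.66 ± 0.13 against 1.75 ± 0.14 (adjusted p = 1.56e-06 and 2.46e-07). Il6 was at 3.47 ± 0.37 and 4.47 ± 0.34 against -0.60 ± 0.64 in RAS+shp53 cells (adjusted p = 0.0016 and 0.000184), and Cxcl1 at 3.40 ± 0.72 and 3.99 ± 0.06 against -0.53 ± 0.36 (adjusted p = 0.00097 and 0.000181). Prl2c5 was at 4.80 ± 1.36 and 6.04 ± 0.09 against -1.74 ± 0.96 (adjusted p = 9.12e-05 and 1.28e-05). In the other direction Pgr was not above background in either of those groups and was at -0.65 ± 0.32 in RAS+shp53 cells (adjusted p = 0.000511 and 0.000129), and Hoxb5 was at -0.65 ± 0.10 and -1.1 ± 0.05 against 0.46 ± 0.03 (adjusted p = 0.000121 and 5.33e-06).

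Some neighbouring genes shared a direction. With the genes tested put in RefSeq order, runs of at least 4 neighbours called the same way were counted. They numbered 69 on the higher side, with 330 of the 3080 genes called higher. On the lower side there were 83, with 393 of the 3236 called lower. With such shares of all genes called, some runs arise by order alone, and how many was not tested. The longest higher run held 11 genes on chromosome 3, Lce1c to Lce3a, with a median of 3.48. A run of 10 on chromosome 8 went from Cep44 to Clcn3 and held Hand2 and Hmgb2 (median 1.28), a run of 10 on chromosome 10 was mostly zinc finger genes around Zfp433 (0.74), a run of 9 on chromosome 8 went from Enkd1 to Pskh1 (0.91), and 6 class I genes on chromosome 17 went from H2-D1 to H2-Q10 (3.11). The longest lower run held 8 genes on chromosome 7, Ctsc to Hikeshi (-3.49). Runs of 7 went from Lsr to Gramd1a on chromosome 7 (-2.08), from D5Ertd605e to Slc7a1 on chromosome 5 (-1.60), from Znf41-ps to Zfp979 on chromosome 4 (-1.46) and from Stoml1 to Adpgk on chromosome 9 (-0.92). Shorter runs, picked out after their values were seen, were the metalloproteinases Mmp12, Mmp1b, Mmp3, Mmp1a and Mmp10 on chromosome 9 (median 6.19) and, on the lower side, Rassf6, Cxcl5, Ppbp, Pf4, Cxcl3 and Cxcl15 on chromosome 5 (-5.54) and Ccl9, Ccl6, Ccl3, Ccl4, Wfdc17 and Wfdc18 on chromosome 11 (-4.52). Copies that probes cannot separate, such as the LCE and H2 genes, count as several genes in such runs.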

How the data were processed

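RNA was measured on 12 single-colour Agilent arrays, 3 per group on 3 slides, each slide with 1 array of each group. The deposited intensity values are the processed signals of Agilent Feature Extraction, version 11.5.1.1 per the file headers and 10.7.3.1 per the submitters' processing notes, with background already subtracted, and the deposited spot flags come from the same files. The authors' deposited log2 table was used as an alternative. Spots flagged non-uniform or outlying were left out (0.333%), log2 signals were scaled to each array's 75th percentile over noncontrol spots, and spots of a probe were averaged. A probe was kept where some group of the 4 had it well above background on each of its 3 arrays, and the brightest probe stood for its gene. Of 39429 probes, 28330 had a gene symbol and 11099 had none. limma 3.58.1 in R 4.3.3 fitted 1 mean per group over all 12 arrays, with Benjamini-Hochberg adjustment, after tests on simulated data. Genes on X and Y were left out. The genes named are the 12 highest and 12 lowest log2 fold changes among called, named genes whose groups do not overlap and whose higher group was well above background on all arrays, up to 4 members per list, taken by adjusted p among those called, and a set written down with the design, such as Trp53, the RAS genes and Il6. Other names were chosen after their values were seen. The members and lists were chosen with earlier results of these data known. Promoters came from RefSeq on GRCm38.p6. The number of arrays limits the precision. Same-numbered arrays of the 2 groups did not deviate together (r = 0.14, 0.0933 and -0.0951), so the replicate number was not used to pair them. Alternatives varied the background correction, scaling, filter, probe choice, fit and arrays. Replacing extreme backgrounds before normexp was chosen after seeing the data. Some genes of the lists are not reported here by name.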

Additional observations from a re-analysis of the deposited data

Results flagged for a closer look

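Genes on the X and Y chromosomes were kept out of the counts above. Of 502 X genes tested, 50 were called higher and 200 lower in RAS+shp53 cells, and all 3 Y genes tested were called higher. The sex of the embryos behind each culture moves with these values, and its part in the result cannot be told apart from the vectors. Of 4808 probes with no gene symbol, 798 were called higher and 607 lower.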

How the results depend on the processing

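The main counts were 3080 higher and 3236 lower. They became 92 and 239 with normexp background correction, 4808 and 2122 with array median scaling, 950 and 1404 with the closest arrays averaged, 5108 and 4948 without the array standing apart in each group, and 1354 and 2090 at 2-fold or more. At an adjusted p under 0.01, 1845 were higher and 2281 lower. With the replicate number as a block the counts were 3137 and 3284 over 12 arrays and 2019 and 2488 over 6 arrays. Of 169 named genes called, 111 lost the call with normexp, 30 with the closest arrays averaged, 11 with normexp and extreme backgrounds replaced, 8 with the block over 6 arrays, 7 with array median scaling, and 2 to 8 with 1 array left out. Under normexp the call was kept by H2-Q5, Mmp10, Gpr149, Ccl5, Cxcl14, Ms4a7, Lyz1, Ccn5, Col10a1, Mgp, Fndc1, Bmp4, Anxa8, Gjb2, Dusp1, Fosl1, Etv4, Rasa3, Cdkn1c, Cdt1, Prim1, Hmga1, Hmga2, Hmgb2, Cxcl5, Il6st, Ptgis, Mmp9, Adamts7, Timp3, Col11a1, Col8a1, Ltbp2, Lox, Mfap5, Itga11, S100a4, Bmp2, Sfrp1, Igfbp2, Plagl1, Hoxb5, Hoxb7, Nlrc5, H2-Q7, H2-K1, Hsd17b7, Mvk, Hmgcs1, Cbr3, Trib3, Gusb, Scx, Sprr1a, Lgr5, Dusp6, H19 and Mmp3. With 1 array left out, 2159 to 3528 were higher and 2616 to 3636 lower. Prl3b1 turned from -0.85 to 0.05 with normexp and extreme backgrounds replaced (adjusted p = 0.888). The cause of these moves was not tested. Signal near background limits dim genes to bounds.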
